A study of Mus musculus with 8 samples.

Results

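The cadherins, protocadherins, connexins, claudins and other junction genes of mouse follicular cells were followed across 4 groups of arrays in which FOXL2 was or was not targeted and 17β-estradiol (E2) was or was not given. The members were 39 genes listed by Entrez gene ID, of which 38 were found among the 24232 genes of the series. They comprised 8 cadherins, 8 protocadherins, 4 connexins, 9 claudins, 6 other tight junction proteins and 3 desmosome proteins. The connexin gene Gja4 was listed too and was not analysed here.

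The cells came from preantral follicles of female Swiss mice aged 8 weeks, with 5 mice pooled for each replicate, and were mostly granulosa cells after 9 days in culture. They received 12 pmol of control siRNA or of FOXL2 siRNA for 24 h, and then 100 nM E2 or vehicle for 10 h. All 4 groups also received the pDsRed plasmid, and all had been moved to hormone-free medium with charcoal-treated serum before transfection. Each group had 2 arrays, replicates 1 and 2, and the numbers are those of the biological replicates. The cultures were not sorted, and in such bulk samples fewer cells of a type and less RNA per cell cannot be told apart.

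Junctions are the protein complexes by which neighbouring cells hold on to each other and exchange signals. Cadherins bridge the gap between cells and are anchored to actin through catenins, and protocadherins are related adhesion proteins with a different cytoplasmic part. Connexins form gap junction channels, and in the follicle connexin 43, the product of Gja1, couples granulosa cells to each other. Claudins, occludin and the JAM proteins form tight junctions, which the ZO proteins link to the cytoskeleton, and Sertoli cells, the supporting cells of the testis, close the seminiferous epithelium with them. Desmosomes join intermediate filaments across cells through desmoplakin, plakoglobin and plakophilins.

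Values are log2 signals after the 75th percentile of every array was brought to the same level, with probes of one gene averaged. Signals of different genes come from different probes, so levels are compared only within a gene. On each array 51.4 to 55.6% of probes exceeded background clearly, and no probe was saturated. The correlation across genes between replicates of one group was 0.989 to 0.992. Of the 15645 genes whose median scaled signal over the 8 arrays reached 10, those with an adjusted p under 0.05 in limma, after Benjamini-Hochberg adjustment over all of them, are called. Every p below is such an adjusted p unless said otherwise.

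Averaged over its 2 probes, which disagreed, the targeted gene did not follow its label. The average is linear, so it reads the brighter probe (mean log2 14.04 with control siRNA) and hardly the dimmer one (6.68). Foxl2 (Entrez 26927) had log2 signals of 13.46 and 13.02 with vehicle and 12.94 and 12.77 with E2 in cells given control siRNA, against 13.41 and 13.40 with vehicle and 13.13 and 12.97 with E2 in cells given FOXL2 siRNA. Averaged over vehicle and E2, the change was 0.18 (SE 0.10, adjusted p = 0.334). Its brighter probe was 0.18 higher with FOXL2 siRNA, and its dimmer probe was 0.97 lower, at 51.1% of the control level, with all 4 arrays labelled FOXL2 siRNA below all 4 labelled control siRNA. The directions below therefore rest on the arrays labelled FOXL2 siRNA.

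Markers of other cell types were read beside the junction genes. All 7 Sertoli markers passed the filter and 3 of them, Sox9, Sox8 and Dhh, rose with FOXL2 siRNA over both treatments. Of the 9 granulosa markers that passed, Fst and Esr2 fell and Inhbb rose, while Fshr stayed near background on all 8 arrays. Of 6 surface epithelium markers that passed, Krt8, Krt18, Upk3b and Msln rose. The summed scaled signal of that list was 17789 to 20025 on the control siRNA arrays and 25715 to 28378 on the FOXL2 siRNA arrays. The sum ran from 234920 to 308680 and from 259340 to 336150 for the Sertoli list, and from 131530 to 140310 and from 151080 to 171330 for the granulosa list. The Sertoli sum was carried by its brightest probe, that of Clu, which was not called (log2 change 0.17, adjusted p = 0.387). That sum therefore does not track Sox9, Sox8 and Dhh, whose log2 changes were 2.05, 1.72 and 1.04. Krt18 and Krt8 gave most of the surface epithelium sum, and Epcam of that list did not pass the filter. Most of the granulosa sum came from Amhr2, Inha and Inhba, none of which was called (log2 changes 0.41, 0.12 and -0.04). Cyp11a1 of the theca list rose as well, while Lhcgr stayed near background on all 8, and none of the endothelial, macrophage, stroma, smooth muscle or oocyte markers that passed was called. Tek, Emcn and Vwf of the endothelial list, Ptprc and Tyrobp of the macrophage list and 6 of the 8 oocyte markers on the array also stayed near background on all 8 arrays. With the replicate number as a block, 3 stroma markers (Col1a1 and Dcn higher, Lum lower), 2 smooth muscle markers (Des higher, Cnn1 lower), Kdr of the endothelial list and Csf1r of the macrophage list, both higher, were called as well. Col1a1 rose by 1.10 on the log2 scale in that fit (adjusted p = 2.04e-07, and 0.0739 without the block), with all 4 FOXL2 siRNA arrays above all 4 control siRNA arrays. The block called 6 of the Sertoli markers, 5 higher and Dmrt1 lower, 6 of the granulosa markers, 3 higher and 3 lower, 5 of the surface epithelium markers and 3 of the theca markers, all higher. Of all genes tested, 12.6% were called over both treatments without the block and 27.7% with it. The part of other cell types in the changes below was not tested.

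Of the 38 members, 28 passed the filter, and 21 of these were well above background on all 8 arrays. The 10 that did not pass were Cdh1, Cdh4, Cdh5, Cdh13, Pcdh17, Gjb2, Gjb5, Cldn1, Cldn5 and Ocln. Of these, 8 were well above background on 0 arrays, with log2 signals between 1.20 and 3.04. They include Cdh1, the E-cadherin of epithelia, and Cdh5 and Cldn5, the adhesion and tight junction proteins of endothelium. Cdh13, a cadherin held to the membrane by a lipid anchor, was well above background on 5 arrays. These were 4 of the 4 FOXL2 siRNA arrays and 1 of the 4 control siRNA arrays, and its signals ran from 1.86 to 3.69. Ocln, the gene of occludin, was above background on 1 array.

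The question for the first comparison was which junction genes differed with FOXL2 siRNA. Over both treatments 10 of the 28 members were called, against 12.6% of all genes tested. The members were chosen with earlier results of these data known. Their shares here and by treatment therefore cannot test whether junction genes change more often than other genes. There were 5 higher members, against 6.39% of all genes called higher, and 5 lower ones, against 6.18% called lower. The higher ones were Cdh2, Cdh3, Cldn12, Cldn15 and Jam2. The lower ones were Pcdh7, Pcdh8, Pcdh18, Gja1 and Pkp2. In these same 10 genes the 4 FOXL2 siRNA arrays did not overlap the 4 control siRNA arrays, which held for 20.9% of all genes tested. The median change of the members was 0.13, and that of all genes was -0.00.

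**Figure D1:**
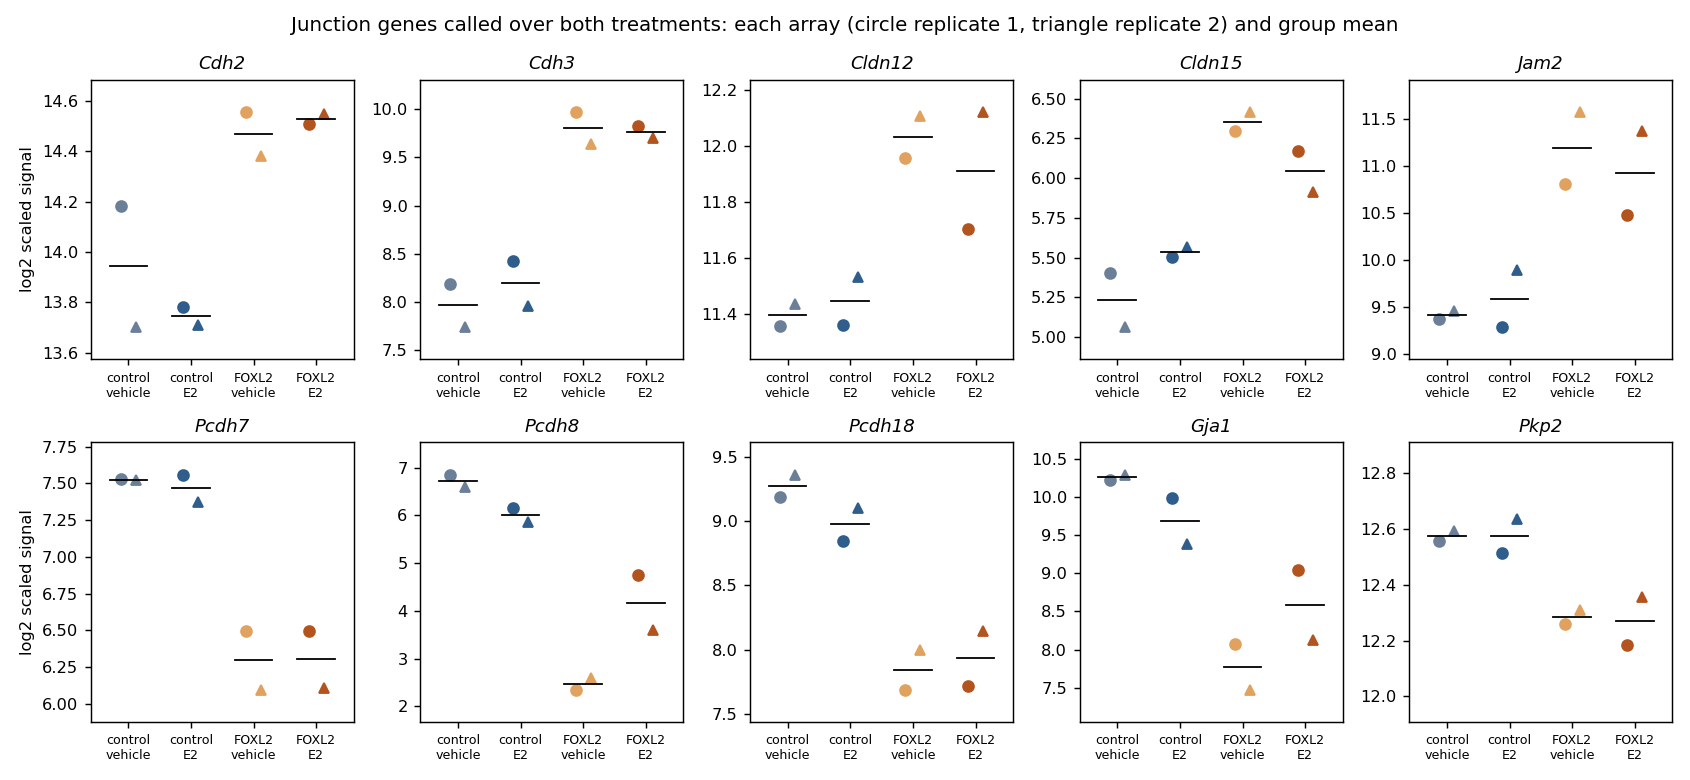
Log2 scaled signal (vertical axis, a different range for each gene) of the 10 junction genes called over both treatments, with replicate 1 as circles, replicate 2 as triangles and group means as lines, for control or FOXL2 siRNA with vehicle or E2. Cdh2, Cdh3, Cldn12, Cldn15 and Jam2 are higher on all 4 FOXL2 siRNA arrays, and Pcdh7, Pcdh8, Pcdh18, Gja1 and Pkp2 lower on all 4.

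By treatment, 8 members were called with vehicle, against 6.53% of all genes, and 5 with E2, against 4.38%. With vehicle 4 were higher, against 3.6% of all genes, and 4 lower, against 2.93%. With E2 2 were higher, against 2.25%, and 3 lower, against 2.13%. Cdh3, Pcdh7, Pcdh8 and Pcdh18 were called with each treatment. With the replicate number as a block the counts were 14 with vehicle, against 18.7% of all genes, and 10 with E2, against 14.9%. The block gave 15 members over both treatments, against 27.7%. Some of the calls with vehicle and with E2 were lost in fits that left out 1 array, as given by gene below.

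**Figure D2:**
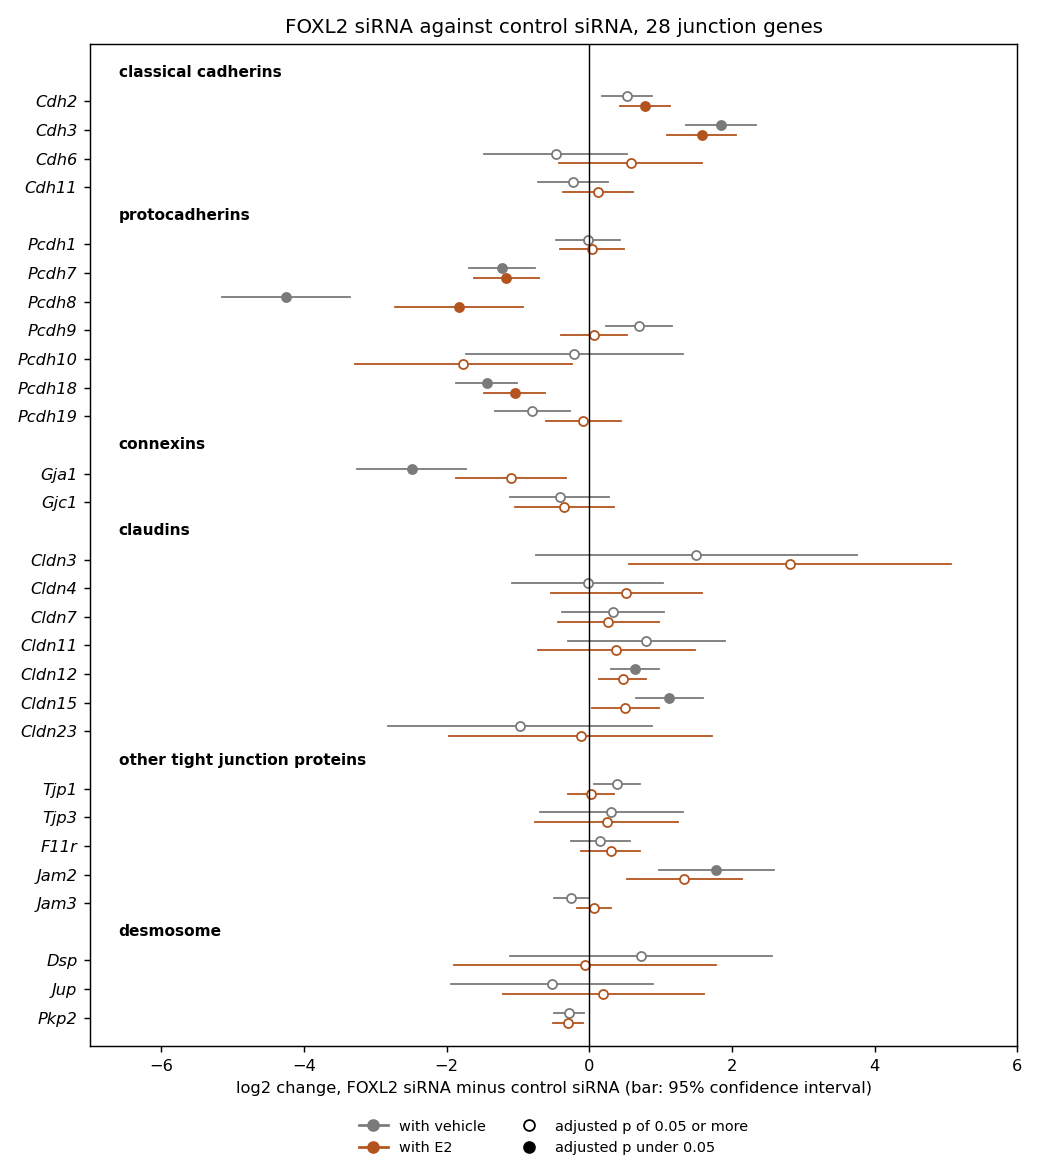
Log2 change between FOXL2 siRNA and control siRNA (horizontal axis) of the 28 junction genes that passed the filter, by junction type, with vehicle in grey and with E2 in orange. Bars are 95% confidence intervals and filled points have an adjusted p under 0.05. Protocadherins Pcdh7, Pcdh8 and Pcdh18 lie below 0 with both treatments, and Cdh3 above.

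Among the cadherins, Cdh2 and Cdh3 were higher with FOXL2 siRNA over both treatments, and neither Cdh6 nor Cdh11 was called. Cdh3 encodes P-cadherin, an adhesion protein of basal epithelia and of placenta. Its log2 signals were 8.19 and 7.74 with vehicle and 8.43 and 7.95 with E2 in cells given control siRNA, against 9.97 and 9.64 with vehicle and 9.82 and 9.71 with E2 in cells given FOXL2 siRNA. The lowest FOXL2 siRNA array thus lay above the highest control siRNA array. The change was 3.27-fold over both treatments (log2 1.71, SE 0.15, adjusted p = 0.000542), 3.59-fold with vehicle (adjusted p = 0.0033) and 2.98-fold under E2 (adjusted p = 0.00788). Without replicate 2 of control siRNA and E2, or replicate 2 of FOXL2 siRNA and E2, the E2 call was lost, with adjusted p = 0.0533 and 0.0503.

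Cdh2 encodes N-cadherin, the classical cadherin of granulosa cells. Its signals were 14.18 and 13.70 with vehicle and 13.78 and 13.71 with E2 in cells given control siRNA, against 14.56 and 14.38 with vehicle and 14.51 and 14.55 with E2 in cells given FOXL2 siRNA. Both of its probes were higher on every FOXL2 siRNA array, by 0.67 and 0.64 on average. The change was 1.57-fold over both treatments (log2 0.65, SE 0.11, adjusted p = 0.00679). With E2 it was 1.72-fold (adjusted p = 0.0294), and that call was lost without any 1 of the 4 arrays of the 2 groups compared (adjusted p = 0.099 to 0.158). With vehicle it was 1.44-fold (adjusted p = 0.0896, and 0.00535 with the replicate block), and adjusted p was 0.0163 without replicate 1 of control siRNA and vehicle, its brightest control array.

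Cdh6 ranged from 4.47 to 5.97 and Cdh11, the osteoblast cadherin, from 5.04 to 5.43 over the 8 arrays. Their changes over both treatments were 0.05 (95% confidence interval -0.65 to 0.76) and -0.05 (-0.40 to 0.30). Both of these intervals, for the average of vehicle and E2, leave out a 2-fold change in either direction. For Cdh6 the difference was -0.47 with vehicle (95% confidence interval -1.47 to 0.53) and 0.58 with E2 (-0.42 to 1.58). These intervals of single treatments allow a 2-fold change, downwards with vehicle and upwards with E2.

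Of the 7 protocadherins that passed, 3 were lower with FOXL2 siRNA with each treatment and 4 were not called. For Pcdh8 the change averaged over vehicle and E2 was -3.04 (SE 0.27, adjusted p = 0.00062), and its size rests on signals near background. Its product is an activity-regulated adhesion protein known from neurons and from somites. Its signals were 6.85 and 6.59 with vehicle and 6.15 and 5.86 with E2 in cells given control siRNA, against 2.36 and 2.59 with vehicle and 4.75 and 3.59 with E2 in cells given FOXL2 siRNA. All 4 control siRNA arrays were well above background, but neither array of FOXL2 siRNA with vehicle was, and 1 of 2 with E2. With vehicle the log2 change was -4.25 (SE 0.39, adjusted p = 0.00189), with FOXL2 siRNA signals that were not well above background. With each array's lowest signal above background in their place, the signal was 8.03-fold lower than with control siRNA. That level is not a strict bound, since some genes brighter than it were not well above background. With E2 the Pcdh8 signal was 3.56-fold lower (log2 -1.83, SE 0.39, adjusted p = 0.0411). That call was lost without any 1 of 7 arrays, the exception being replicate 1 of FOXL2 siRNA and E2, and the highest adjusted p, 0.229, came without replicate 1 of control siRNA and E2. With normexp background correction the log2 changes were smaller, -1.12 with vehicle, -0.57 with E2 (adjusted p = 0.0868) and -0.84 over both treatments.

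Pcdh7 and Pcdh18 are members of the non-clustered delta protocadherins. Pcdh7 has 3 probes, and each was lower on all 4 FOXL2 siRNA arrays, at 40.7%, 50.7% and 53.7% of the control level. The gene signals were 7.53 and 7.52 with vehicle and 7.56 and 7.38 with E2 in cells given control siRNA, against 6.50 and 6.10 with vehicle and 6.50 and 6.11 with E2 in cells given FOXL2 siRNA. The 2 groups of each siRNA were nearly level. The change over both treatments was 2.29-fold lower (log2 -1.19, SE 0.14, adjusted p = 0.00181), and -0.79 on the log2 scale with normexp background correction. It was -1.23 with vehicle (adjusted p = 0.0126). The E2 arrays differed by -1.16 (adjusted p = 0.0196). Each of these 2 calls was lost in 3 of the 8 fits without 1 array. With vehicle adjusted p was 0.0505 and 0.067 without replicates 1 and 2 of control siRNA and vehicle, and 0.081 without replicate 2 of FOXL2 siRNA and vehicle. With E2 it was 0.146 and 0.0896 without replicates 1 and 2 of control siRNA and E2, and 0.12 without replicate 2 of FOXL2 siRNA and E2.

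Pcdh18 signals were 9.19 and 9.37 with vehicle and 8.85 and 9.11 with E2 in cells given control siRNA, against 7.69 and 7.99 with vehicle and 7.72 and 8.15 with E2 in cells given FOXL2 siRNA. The groups of the 2 siRNAs did not overlap. The change was -1.24 over both treatments (SE 0.13, adjusted p = 0.00115), which left 42.2% of the control level. It was -1.44 with vehicle (adjusted p = 0.00531). The E2 arrays differed by -1.05 (adjusted p = 0.022). With E2 the call was lost without replicate 1 or 2 of control siRNA and E2 (adjusted p = 0.0905 and 0.142) or without replicate 1 of FOXL2 siRNA and E2 (adjusted p = 0.0856).

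The 4 protocadherins that were not called were Pcdh1, Pcdh9, Pcdh10 and Pcdh19. Over both treatments Pcdh1 changed by 0.01 (95% confidence interval -0.31 to 0.33). Pcdh9 was at 6.48 and 6.54 with control siRNA and vehicle and at 6.81 to 7.30 on the 6 other arrays. With vehicle its difference was 0.69 (adjusted p = 0.093, and 0.00495 with the replicate block), and over both treatments 0.38 (0.132, and 0.0156 with the block). Pcdh19, a protocadherin of the X chromosome, was highest with control siRNA and vehicle, at 5.91 and 5.68, and lay between 4.80 and 5.35 elsewhere. Its difference with vehicle was -0.80 (adjusted p = 0.0915, and 0.0275 with the block). Pcdh10 stood at 5.92 on replicate 1 of control siRNA and E2, and between 2.93 and 3.83 on the 7 other arrays, 4 of the 8 being well above background.

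Of the connexins, Gja1 was lower with FOXL2 siRNA and Gjc1, the gene of connexin 45, was not called. Gja1 signals were 10.23 and 10.30 with vehicle and 9.99 and 9.38 with E2 in cells given control siRNA, against 8.07 and 7.47 with vehicle and 9.04 and 8.13 with E2 in cells given FOXL2 siRNA. All 4 FOXL2 siRNA arrays lay below all 4 control siRNA arrays. With vehicle the signal fell to 17.8% of the control level (log2 -2.49, SE 0.33, adjusted p = 0.006). Over both treatments it fell to 28.8% (log2 -1.80, SE 0.23, adjusted p = 0.00267). With E2 the difference was -1.10 (SE 0.33, adjusted p = 0.129, and 0.000941 with the replicate block). The first 2 calls held in each of the 8 fits without 1 array. Gjc1 was above background on 3 of 8 arrays, with signals from 3.64 to 4.67 and a change of -0.38 over both treatments (95% confidence interval -0.87 to 0.11).

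Sequence before the transcription start was available from RefSeq (build GRCm38.p6) for 25 of the 38 members and for 6 of the 10 that were called. These 6 have 8 start sites, and the 250 bases before each were read on both strands. The forkhead letters TGTTTAC or TGTTTGC, which FOXL2-type factors can recognise, were in 0 of the 8 windows and in 7.29% of all 32851 windows of this length. The AP-1 letters TGANTCA were in the windows of Gja1 and Cldn15 and in 6.75% of all windows. The SOX letters AACAAT or AACAAAG were in the window of Pcdh8 and in 13.8% of all windows. Members that were not called held them too, AP-1 letters in F11r and Cldn4 and SOX letters in Cldn4 and Cdh6. The GC box GGGCGG was in 4 of the 8 windows and in 32.7% of all. Since the Cldn12 windows overlap, the same GC box was counted in more than 1 of them. The windows of the lower genes Gja1 and Pcdh8 and of the higher Cldn15 are shown because they hold these letters, with AP-1 and SOX matches in capitals. A match of letters does not show that a factor binds there. The NR5A letters CAAGGTCA and the full palindromic estrogen response element were in 0 of the 8 windows, and in 1.33% and 0.0639% of all. Counted from the transcription start, the AP-1 match begins at position -19 for Gja1 and -214 for Cldn15, and the SOX match at -178 for Pcdh8. They lie on the plus strand of chr10:56377050-56377299 for Gja1, the minus strand of chr14:79771313-79771562 for Pcdh8 and the plus strand of chr5:136967619-136967868 for Cldn15.
Gja1: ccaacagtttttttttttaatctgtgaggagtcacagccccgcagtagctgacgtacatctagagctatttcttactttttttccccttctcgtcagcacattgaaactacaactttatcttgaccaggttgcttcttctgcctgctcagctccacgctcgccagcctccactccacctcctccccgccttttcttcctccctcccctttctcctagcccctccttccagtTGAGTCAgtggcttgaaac
Pcdh8: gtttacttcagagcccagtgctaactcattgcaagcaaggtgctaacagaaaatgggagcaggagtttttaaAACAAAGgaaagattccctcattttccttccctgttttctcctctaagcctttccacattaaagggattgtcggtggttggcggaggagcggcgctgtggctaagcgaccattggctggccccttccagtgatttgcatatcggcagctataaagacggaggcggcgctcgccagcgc
Cldn15: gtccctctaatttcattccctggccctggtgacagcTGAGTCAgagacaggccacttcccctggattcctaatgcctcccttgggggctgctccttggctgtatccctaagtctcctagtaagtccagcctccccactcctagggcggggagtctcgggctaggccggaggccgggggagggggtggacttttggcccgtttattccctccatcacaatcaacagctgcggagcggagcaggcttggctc

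Of the 7 claudins that passed, Cldn12 and Cldn15 were higher over both treatments and 5 were not called. Cldn15, a claudin that forms channels for cations, had signals of 5.40 and 5.07 with vehicle and 5.50 and 5.57 with E2 in cells given control siRNA, against 6.30 and 6.42 with vehicle and 6.17 and 5.91 with E2 in cells given FOXL2 siRNA. The FOXL2 siRNA arrays were all above the control siRNA arrays, and the gap was wider with vehicle. The change was 2.18-fold with vehicle (log2 1.12, SE 0.20, adjusted p = 0.0189) and 1.76-fold over both treatments (adjusted p = 0.00979). With normexp background correction these log2 changes were 0.60 and 0.46. With E2 the difference was 0.51 (adjusted p = 0.264). The vehicle call was lost without either FOXL2 siRNA vehicle array (adjusted p = 0.076 without replicate 1 and 0.121 without replicate 2) and without replicate 2 of control siRNA and vehicle (0.0929).

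Cldn12 encodes a claudin that lacks the usual anchor for ZO proteins. Its signals were 11.36 and 11.43 with vehicle and 11.36 and 11.53 with E2 in cells given control siRNA, against 11.96 and 12.11 with vehicle and 11.70 and 12.12 with E2 in cells given FOXL2 siRNA. No FOXL2 siRNA array reached down to a control siRNA array. The change over both treatments was 1.47-fold (log2 0.55, SE 0.10, adjusted p = 0.0115). With vehicle it was 0.64 (adjusted p = 0.0407), and this call was lost in 6 of 8 fits without 1 array, and adjusted p reached 0.208 when replicate 2 of FOXL2 siRNA and vehicle was left out. It held without replicate 1 or replicate 2 of FOXL2 siRNA and E2. With E2 the difference was 0.47 (adjusted p = 0.138, 0.00454 with the replicate block, and 0.04998 without replicate 1 of FOXL2 siRNA and E2).

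Cldn3 is a claudin of tight epithelia. Its signals were 4.11 and 1.86 with vehicle and 3.85 and 1.92 with E2 in cells given control siRNA, against 5.05 and 3.91 with vehicle and 4.80 and 6.60 with E2 in cells given FOXL2 siRNA. It was well above background on 1 of 4 control siRNA arrays and 3 of 4 FOXL2 siRNA arrays. The groups overlapped, since replicate 2 of FOXL2 siRNA and vehicle lay below replicate 1 of control siRNA and vehicle. The difference over both treatments was 2.16 (SE 0.69, adjusted p = 0.0843, 0.00921 with the replicate block and 0.043 without replicate 1 of control siRNA and vehicle). With E2 neither control siRNA array was well above background, and the log2 difference was 2.81 (adjusted p = 0.184, and 0.0236 with the block). With each array's lowest signal above background in place of dimmer control signals, the signal with FOXL2 siRNA was 4.09-fold higher, which is not a strict bound. With normexp background correction the log2 differences were 0.62 over both treatments and 0.80 with E2.

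Cldn11, the main claudin of the Sertoli cell barrier, had signals of 4.37 and 5.23 with vehicle and 4.36 and 5.62 with E2 in cells given control siRNA, against 5.32 and 5.87 with vehicle and 5.14 and 5.59 with E2 in cells given FOXL2 siRNA. Within replicate 1 and within replicate 2 the vehicle array with FOXL2 siRNA was the highest, but arrays of replicate 2 were above those of replicate 1 in all 4 groups. The difference was 0.80 with vehicle (adjusted p = 0.425, and 0.0496 with the block) and 0.59 over both treatments (0.322, and 0.0309 with the block). Cldn4, Cldn7 and Cldn23 changed by 0.25, 0.30 and -0.55 over both treatments, with 95% confidence intervals of -0.50 to 0.99, -0.21 to 0.80 and -1.85 to 0.76. The interval of Cldn23, above background on 3 of 8 arrays, allows a change of over 2-fold downwards.

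Of the 5 other tight junction genes that passed, Jam2 was higher with FOXL2 siRNA. It encodes JAM-B, an immunoglobulin-like adhesion protein of tight junctions that also binds germ cells to Sertoli cells. Its signals were 9.37 and 9.46 with vehicle and 9.29 and 9.89 with E2 in cells given control siRNA, against 10.81 and 11.57 with vehicle and 10.47 and 11.37 with E2 in cells given FOXL2 siRNA. Its 3 probes were each higher on all 4 FOXL2 siRNA arrays, by 0.85, 1.59 and 1.47 on average. The change was 2.94-fold over both treatments (log2 1.56, SE 0.25, adjusted p = 0.00597) and 3.43-fold with vehicle (adjusted p = 0.024). The vehicle call was lost without replicate 1 or 2 of control siRNA and vehicle (adjusted p = 0.09 and 0.103) or replicate 2 of FOXL2 siRNA and vehicle (0.142). With E2 the difference was 1.33 (adjusted p = 0.0845, 8.04e-05 with the replicate block and 0.0466 without replicate 1 of FOXL2 siRNA and E2).

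Jam3, whose product pairs with JAM-B, ranged from 11.65 to 12.06, and its change over both treatments was -0.10 (95% confidence interval -0.27 to 0.08). F11r, the gene of JAM-A, ranged from 14.24 to 14.87 and differed by 0.23 (adjusted p = 0.305, and 0.0346 with the replicate block). Tjp1, the gene of ZO-1, ranged from 9.92 to 10.61. Its difference with vehicle was 0.39 (adjusted p = 0.165, and 0.0265 with the block) and with E2 0.02 (95% confidence interval -0.30 to 0.34). Tjp3, the gene of ZO-3, differed by 0.27 over both treatments (adjusted p = 0.633, and 0.0357 with the block). For Jam3, F11r, Tjp1 and, narrowly, Tjp3 (-0.43 to 0.98) the 95% confidence intervals over both treatments leave out a 2-fold change. The Tjp3 intervals with vehicle (-0.70 to 1.31) and with E2 (-0.76 to 1.25) allow a rise of that size.

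Of the desmosome genes, Pkp2 was lower and neither Dsp nor Jup was called. Pkp2 encodes plakophilin 2, which links desmoplakin to the membrane plaque. Its signals were 12.56 and 12.59 with vehicle and 12.52 and 12.64 with E2 in cells given control siRNA, against 12.26 and 12.31 with vehicle and 12.18 and 12.36 with E2 in cells given FOXL2 siRNA. The FOXL2 siRNA arrays were all lower, but the step was small, 81.3% of the control level over both treatments (log2 -0.30, SE 0.06, adjusted p = 0.0218). That call held in 3 of 8 fits without 1 array. It was lost without replicate 1 or 2 of FOXL2 siRNA and vehicle (adjusted p = 0.0704 and 0.0607), replicate 1 of FOXL2 siRNA and E2 (0.0697), replicate 2 of control siRNA and vehicle (0.0684) or replicate 2 of control siRNA and E2 (0.0807). With vehicle and with E2 alone the adjusted p was 0.118 and 0.126, and 0.022 and 0.0203 with the replicate block. Jup, the gene of plakoglobin, stood at 6.78 on replicate 1 of control siRNA and vehicle and between 4.79 and 5.79 on the 7 other arrays. Dsp, the gene of desmoplakin, ranged from 2.92 to 5.20.

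The second question was whether E2 changed the junction genes. With control siRNA 0 members were called, against 0.0192% of all genes, and with FOXL2 siRNA 0 members, against 0.0128%. At an unadjusted limma p under 0.05 there was 1 member with control siRNA, Pcdh9, against 4.58% of all genes. With FOXL2 siRNA there were 2, Pcdh8 and Gja1, against 3.06%. The study's rule, which asks for a change of at least 1 on the log2 scale and over 2 times the sum of both groups' SDs, named 0 members with either siRNA. The 95% confidence intervals of 15 of the 28 members with control siRNA, and of 15 with FOXL2 siRNA, left out a 2-fold change in either direction. With the replicate block 0 members were called with control siRNA, against 1.16% of all genes. With FOXL2 siRNA the block called 1, Pcdh8, against 0.614%.

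**Figure D3:**
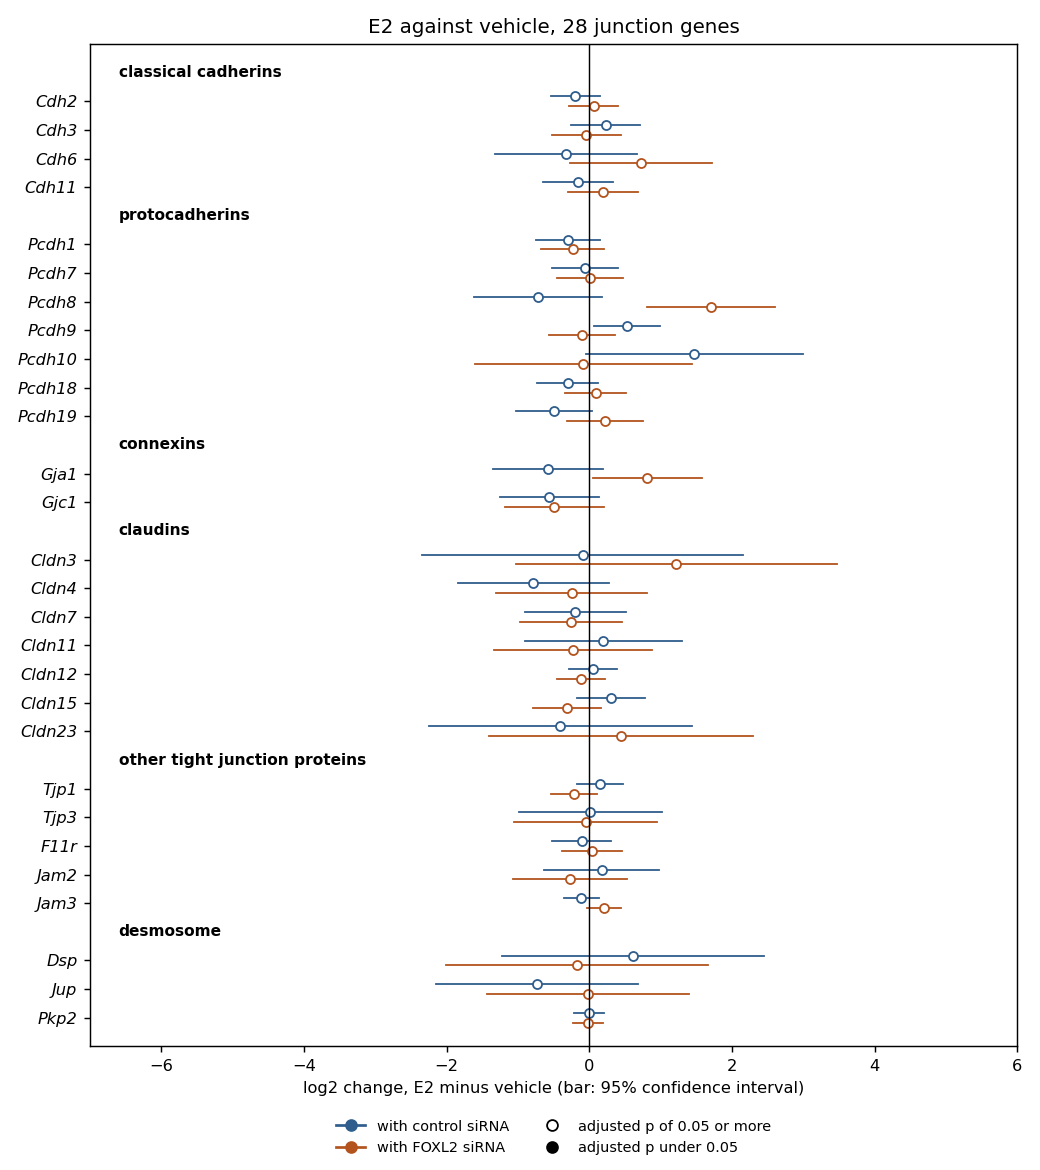
Log2 change between E2 and vehicle (horizontal axis) of the 28 junction genes that passed the filter, with control siRNA in blue and with FOXL2 siRNA in orange. Bars are 95% confidence intervals and open points have an adjusted p of 0.05 or more, as all points here do. Pcdh8 and Gja1 lie below 0 with control siRNA and above 0 with FOXL2 siRNA.

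The difference between the 2 E2 effects was called for 0 members, against 0.243% of all genes. It was called for 2 members with the replicate block, against 2.12%, and these were Gja1 and Pcdh8. Unadjusted, the same 2 had a limma p under 0.05, against 4.9% of all genes. Gja1 differed between E2 and vehicle by -0.24 and -0.91 in the 2 replicates with control siRNA and by 0.97 and 0.65 with FOXL2 siRNA. The difference between these effects was 1.39 (95% confidence interval 0.30 to 2.47, adjusted p = 0.77, and 0.0111 with the replicate block). Pcdh8 differed by -0.70 and -0.73 with control siRNA and by 2.40 and 1.00 with FOXL2 siRNA, where 3 of its 4 signals were not well above background. The difference between its effects was 2.42 (95% confidence interval 1.15 to 3.69, adjusted p = 0.308, and 0.0167 with the block). With FOXL2 siRNA alone the block gave Pcdh8 an adjusted p of 0.0422 for E2, and 0.645 came without the block. With normexp background correction the E2 change of Pcdh8 with FOXL2 siRNA was 0.13.

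The spread between the replicates, which are separate pools of mice, was itself uneven among the members. In 14 of the 28 members replicate 2 lay on the same side of replicate 1 in all 4 groups, against 36.1% of all genes tested. In 6 members this difference was also at least 0.5 on average, against 6.71% of all genes. Dsp was higher in replicate 2 by 1.41 on average, Cldn11 by 0.78 and Jam2 by 0.59. Tjp3 was lower in replicate 2 by an average difference of -0.81, Cldn4 by -0.66 and Cdh6 by -0.63. Markers of other cells differed between the replicates as well. The summed signal of the 4 smooth muscle markers was 4017 to 4274 in replicate 1 and 10765 to 12549 in replicate 2, with Acta2 the brightest of them. Des ran the other way, lower in replicate 2 by an average difference of -0.80, and Myh11 was near background on all 8 arrays. The summed signal of the 5 stroma markers was 9890 to 14226 and 5385 to 7136. Their part in the spread of the junction genes was not tested.

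**Figure D4:**
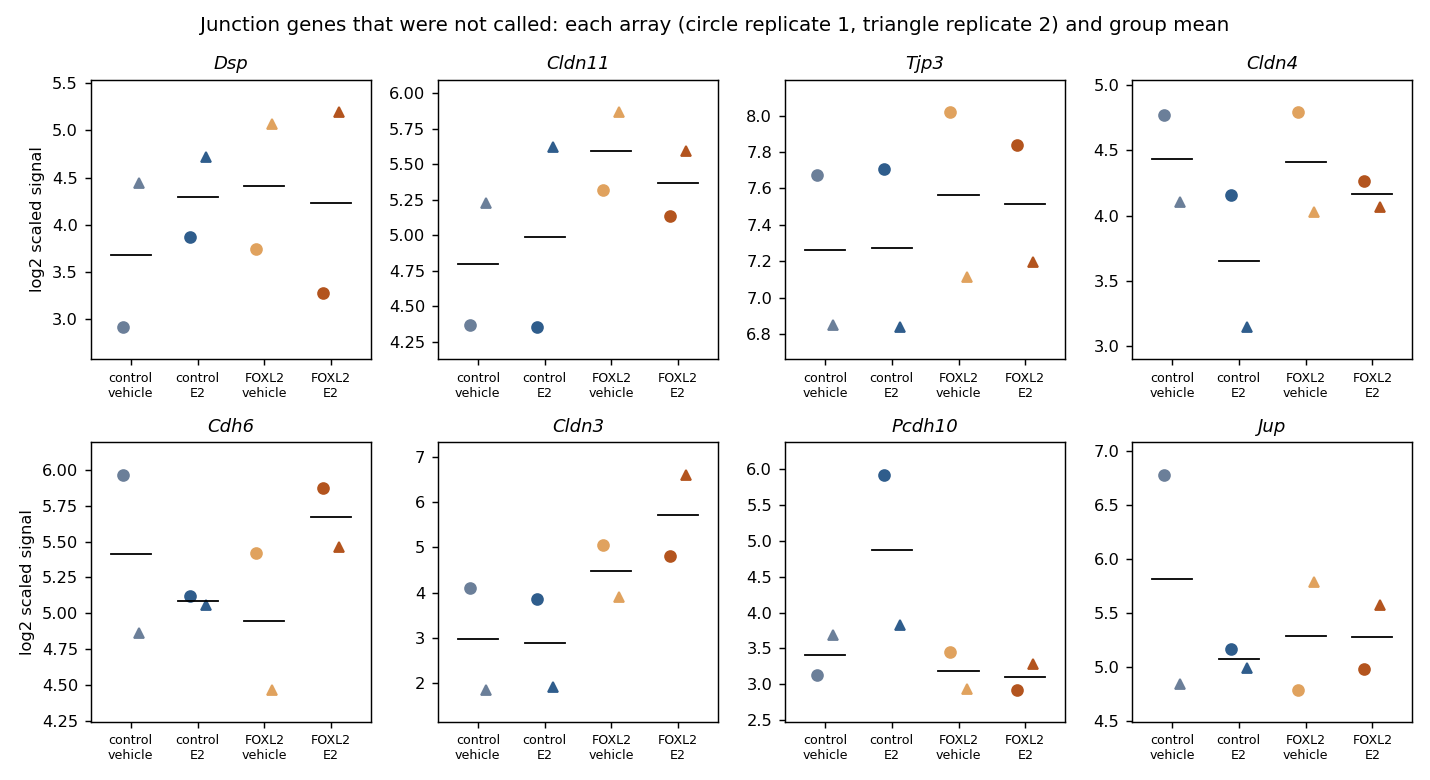
Log2 scaled signal (vertical axis, a different range for each gene) of 8 junction genes that were not called, with replicate 1 as circles, replicate 2 as triangles and group means as lines. Dsp and Cldn11 are higher in replicate 2 in all 4 groups, Tjp3, Cldn4 and Cdh6 are lower, and Pcdh10 and Jup have single arrays apart from the rest. Cldn3 is lowest on both replicate 2 arrays of control siRNA and highest on replicate 2 of FOXL2 siRNA and E2.

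The remaining junction genes of these families were read from a list of 93 genes, of which 47 passed the filter. Over both treatments 7 of them were called, 6 higher and 1 lower, against 12.6% of all genes, and 17 with the replicate block, against 27.7%. These are 14.9% of the 47 without the block, a share near that of all genes. Their median change was 0.09. The 3 largest rises were those of Ppl, the gene of periplakin (log2 1.25, SE 0.20, adjusted p = 0.00583), Pard6b, a polarity protein of tight junctions (0.84, SE 0.12, adjusted p = 0.00409), and Cgn, the gene of cingulin (0.62, SE 0.08, adjusted p = 0.00248). The lower gene was Nectin1, an adhesion protein of adherens junctions (-0.60, SE 0.14, adjusted p = 0.0264). With vehicle 4 were called, all higher, against 6.53% of all genes, and 15 with the replicate block, against 18.7%. With E2 1 was called, also higher, against 4.38%, and 7 with the block, against 14.9%. Between E2 and vehicle 0 were called with either siRNA. Of the catenins and their relatives, which link cadherins to actin, 7 passed the filter and 0 were called over both treatments. The block called 2 of them, Ctnna2 (log2 change 0.19, adjusted p = 0.0258, and 0.479 without the block) and Ctnnd1 (0.27, adjusted p = 0.0182, and 0.186).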

How the data were processed

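The 8 one-colour Agilent arrays (4 groups of 2) were read with Feature Extraction 11.5.1.1, per the file headers, and the deposited scanner files hold each spot's intensity as processed by that software for the authors. The authors' table holds log2 values of the same arrays, which equalled those used here within 0.001, after 1 offset per array, at 98.7 to 98.9% of gene values on each array.

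The processed intensity was scaled to each array's 75th percentile, which lay between 275 and 367, after 3671 control spots and 42 non-uniform probes were left out. Probes of one Entrez ID were averaged on the linear scale, and log2 was taken. Of 24232 genes, 15645 whose median scaled signal reached 10 were tested with limma 3.58.1 (R 4.3.3), which fitted 4 group means over 8 arrays with an intensity trend. Tests are two-sided, and p was adjusted by the Benjamini-Hochberg method over all genes tested. The number of arrays limits the precision. Python 3.11.15 and matplotlib 3.10.9 served for summaries and plots.

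The numbers of the replicates mark pools of mice. Deviations of same-numbered arrays from their group means correlated at 0.329 to 0.445 across genes in all 6 pairs of groups, so the replicate number was taken to pair the arrays, and a fit with it as a block is given where it changes a member's call, and by counts for the other lists. Replicates 1 and 2 lay in different rows of 1 slide, so pool and slide row cannot be told apart. The alternatives were normexp background correction with an offset of 50, quantile normalization, the authors' log2 table, no filter, a filter on genes above background, the brightest probe, no intensity trend, only the groups compared, the replicate block, the study's rule for E2 and leaving out each array.

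The members, the gene and marker lists and the motifs were chosen with earlier results of these data known. Arrays are given singly for members called in any comparison, and for some others to show the spread. Of the other junction genes, up to 3 higher and 3 lower ones are named by the size of their change over both treatments.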

Additional observations from a re-analysis of the deposited data

Results flagged for a closer look

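For 2 members the E2 effect differed between the siRNAs when the replicate number was a block in limma, and not without it. The E2 effect on Pcdh8 was higher with FOXL2 siRNA than with control siRNA by 2.42 on the log2 scale (adjusted p = 0.0167 with the block and 0.308 without). With FOXL2 siRNA 3 of its 4 signals were not well above background, and with normexp background correction the difference was 0.54. For Gja1 the difference was 1.39 (adjusted p = 0.0111 with the block and 0.77 without). In both genes E2 arrays lay below vehicle arrays in 2 of 2 replicates with control siRNA and above them in 2 of 2 with FOXL2 siRNA.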

How the results depend on the processing

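No called change turned direction under any of the alternatives run. Over both treatments the count of members called, 10, was 9 or 10 under the other settings, 15 with the replicate block and 9 to 11 in the fits that left out 1 array. With vehicle the count of 8 was 5 with no filter, which tested 24232 genes, 14 with the replicate block and 4 to 8 without 1 array. With E2 the count of 5 was 3 with no filter, 2 with no intensity trend, 3 with only the groups compared, 10 with the replicate block and 0 to 5 without 1 array. For E2 against vehicle the replicate block called 0 members with control siRNA and 1 with FOXL2 siRNA, and 2 for the difference between these effects, where the other settings called 0 in each. Of 168 changes of single members, the block called 19 more and lost 0. Pkp2 over both treatments was not called under normexp background correction (adjusted p = 0.0632) or with no intensity trend (0.0583). With vehicle, Cldn12 and Jam2 were lost with no filter and with no intensity trend. Cldn12 was also lost under normexp, and Cldn15 with no filter and with only the groups compared. With E2, Pcdh8 was lost under all 4 of these settings. Cdh2 was lost there with no filter and no intensity trend, and Pcdh18 with no intensity trend and only the groups compared. The causes of these differences were not tested. Leaving out 1 array leaves a group with 1, assumed to vary like the others. Members near background, such as Pcdh8 with FOXL2 siRNA, Cldn3, Cldn23, Gjc1 and Pcdh10, have sizes that depend on the background correction or rest on arrays without a measured signal.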
